A study of Mus musculus with 6 samples.

Results

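The transcripts of 10 core circadian clock genes were followed in RAW264.7 cells, a mouse macrophage-like line, after treatment with SKI-II, a small molecule first described as a sphingosine kinase inhibitor. The genes were chosen by name (Arntl, Clock, Per1, Per2, Per3, Cry1, Cry2, Nr1d1, Nr1d2 and Dbp) as core parts of the clock, with earlier results of these data known, and all 10 were found among the 49315 genes of the count table. The cells, labelled wild type, received fresh medium with 4 μg/mL of SKI-II in 3 libraries, or with the same volume of DMSO, the vehicle, in the 3 control libraries. RNA was taken after 24 h in both groups. The libraries held between 12495957 and 20050677 counted reads. The study's methods, through those of its quantitative PCR, describe the replicates as biological, while the labels do not say whether they were separate cultures. The p-values set the difference between the groups against the spread between these libraries. The hour of harvest is not given in the sources used here, and no other time was sampled. A shift in the phase of a rhythm and a change in its mean level therefore cannot be told apart. The same holds for fewer expressing cells and less RNA per cell.

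The mammalian clock is a feedback loop of transcription. The proteins of Arntl (BMAL1) and Clock form a dimer that binds E-box sequences and activates the Per and Cry genes, whose proteins then repress that dimer. In a further loop the dimer activates Nr1d1 and Nr1d2, which encode the nuclear receptors REV-ERBα and REV-ERBβ. These bind RORE sequences and repress Arntl, at sites where the ROR receptors activate. Dbp, an output gene driven by E-boxes, encodes a factor that binds D-box sequences. Macrophages hold such a clock, and REV-ERB proteins are known to restrain inflammatory genes there. In a running clock, Arntl peaks at nearly the opposite phase to Nr1d1 and Dbp.

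The sites that link these genes can be read in their promoters. RefSeq (GRCm38.p6) gave 13 promoters, each from 250 bases before to 50 after a start site, for 9 of the 10 genes, with Per2 having no entry. Both strands were searched for an E-box (CACGTG), an E'-box (CACGTT), a D-box (TTATGTAA or TTATGCAA), an RORE core (TAGGTCA or TGGGTCA), a CRE (TGACGTCA) and an ARE (TGACNNNGC), the last being the site of Nrf2. An E-box was present in Per1 and Cry1 and in 7.15% of all 32851 promoters of that length. An E'-box lay in Cry1, Cry2 and Nr1d1 (4.68% of all promoters), a D-box in Per1 and Per3 (1.66%), and an RORE core in Arntl (6.45%). None of the 13 promoters searched held the CRE (1.79%). The ARE lay in Per1, Cry1, Cry2 and Nr1d2 (12.4%), and its 2 matches in Cry1 share bases. The windows of Clock and Dbp held none of these letters. A match of this kind is a description of the sequence and no measure of binding.

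Stretches are shown for Arntl, Per3 and Nr1d1, which were called in the comparison described next, and for Per1, which was not called but holds both an E-box and a D-box. Each is written 5′ to 3′ on the strand of its gene, with the motif named for it here in capitals. An ARE match within the Per1 stretch is left in lower case. In Arntl the capitals mark the RORE core, which begins at base 31 after a start site (chr7:113207530-113207558, plus strand). In Per3 they mark both D-boxes, which begin at bases -205 and -158 from the start site (chr4:151044804-151044882, minus strand). In Nr1d1 they mark the E'-box on the opposite strand, at base -28 (chr11:98775388-98775417, minus strand). In Per1 they mark the E-box at base -166 and the D-box at base -24 (chr11:69098771-69098944, plus strand).
Arntl: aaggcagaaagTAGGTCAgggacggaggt
Per3: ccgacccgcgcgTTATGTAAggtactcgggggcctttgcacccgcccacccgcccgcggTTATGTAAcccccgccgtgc
Nr1d1: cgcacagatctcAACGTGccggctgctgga
Per1: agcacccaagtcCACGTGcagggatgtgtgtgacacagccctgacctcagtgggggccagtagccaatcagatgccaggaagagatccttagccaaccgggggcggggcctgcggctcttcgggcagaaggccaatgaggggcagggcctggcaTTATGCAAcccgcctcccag

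SKI-II treatment was compared with DMSO to ask how the treated macrophages differ in transcription. Among the clock genes, Arntl rose 1.62-fold, while Nr1d1 fell 7.57-fold, Dbp 6.60-fold, Per3 2.73-fold and Nr1d2 2.56-fold. Clock, Per1, Per2, Cry1 and Cry2 did not pass the test. All 10 genes had enough reads for edgeR's quasi-likelihood test, which called 1 of them higher and 4 lower (Benjamini-Hochberg adjusted p below 0.05). Over all 12274 tested genes, 18.4% were called higher and 19.7% lower. All 4 falls went below a log2 fold change of -1, as did the calls of 7.44% of all tested genes. The rise of Arntl did not reach a log2 fold change of 1, which the calls of 8.28% of all tested genes exceeded. All 3 SKI-II libraries lay above all 3 DMSO libraries for 1 clock gene (24.8% of tested genes) and below them for 4 (25.5%). The median log2 fold change of the 10 genes was -0.44, against 0.00 over all tested genes. The values below are normalized counts, given for replicates 1, 2 and 3 in that order.

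**Figure D1:**
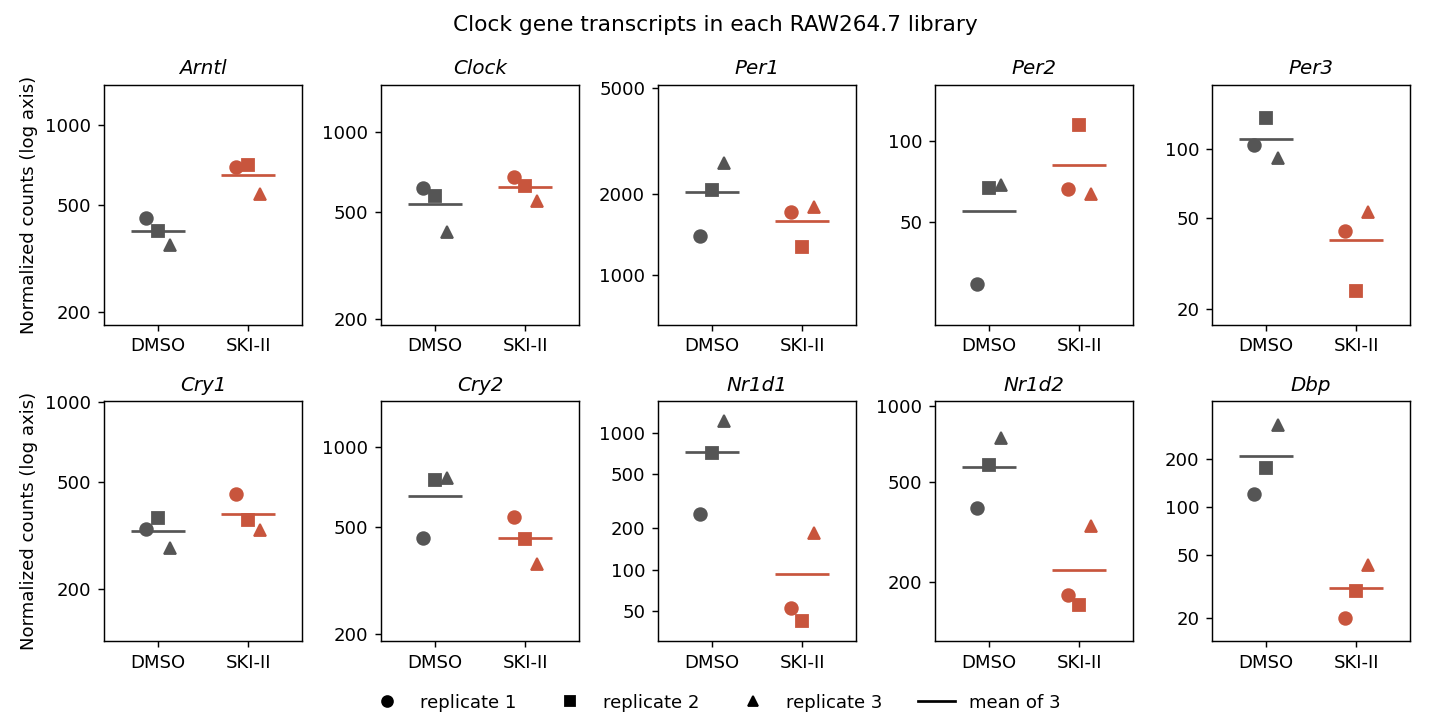
Normalized counts of each clock gene (y axis, logarithmic, scaled separately for each gene) in the DMSO and SKI-II libraries. Marker shapes give the replicate number and lines the mean of 3 libraries. The groups are separate for Arntl, Per3, Nr1d1, Nr1d2 and Dbp and overlap for the other 5 genes.

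Of the activators, Arntl (chromosome 7, 113207465 to 113314126 in GRCm38) was at 448, 403 and 357 with DMSO and at 695, 707 and 552 with SKI-II. Every treated library lay above every control library. The log2 fold change was 0.69 (SE, the standard error, 0.15, adjusted p = 0.00623 in edgeR's quasi-likelihood test). Clock (chromosome 5, 76209868 to 76304792), which encodes its partner, was at 618, 576 and 422 with DMSO and at 676, 629.8 and 553 with SKI-II. Here the groups overlapped, with a log2 fold change of 0.20 (SE 0.17, adjusted p = 0.377 in the same test). For this pair of genes that act as a dimer, a difference larger than the spread between libraries was thus detected in Arntl alone. Whether the changes of Arntl and Clock differ from each other was not tested.

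The REV-ERB genes, which repress Arntl, stood lower with SKI-II. Nr1d1 (chromosome 11, 98767932 to 98775333) was at 256, 708 and 1209 with DMSO and at 52.6, 42.0 and 187 with SKI-II, a log2 fold change of -2.92 (SE 0.60, adjusted p = 0.00503 in edgeR's quasi-likelihood test). The groups did not overlap, although the highest library of each group was over 4-fold above the lowest, with ratios of 4.71 in DMSO and 4.44 in SKI-II. The size of the fall varied with the library left out. Leaving out DMSO replicate 3 gave a log2 fold change of -2.33 and leaving out SKI-II replicate 3 gave -3.94, with the call kept both times. Without both libraries numbered 3 it was -3.34, as it was without DMSO replicate 1. Nr1d2 (chromosome 14, 18204054 to 18239127) was at 394, 584 and 748 with DMSO and at 177, 162 and 332 with SKI-II. Again no treated library reached the lowest control, and the log2 fold change was -1.35 (SE 0.30, adjusted p = 0.00645 in the same test). Nr1d1 shares 263 bases of exon, 8.55% of its exon length, with Thra, the thyroid hormone receptor gene on the opposite strand. Without a known strand setting, reads from these bases cannot be assigned to either gene. Thra was at 597, 727 and 1147 with DMSO and at 409.5, 392 and 688 with SKI-II, with a log2 fold change of -0.73 (SE 0.27, adjusted p = 0.0608).

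Dbp (chromosome 7, 45705088 to 45710203), the D-box factor, gave the smallest adjusted p of the 10 genes. It was at 120.4, 176 and 328 with DMSO and at 20.1, 29.6 and 43.2 with SKI-II. The highest treated library lay below the lowest control, and the log2 fold change was -2.72 (SE 0.41, adjusted p = 0.000783 in edgeR's quasi-likelihood test). Dbp shares 539 bases of exon, 18.0% of its exon length, with Sphk2 on the opposite strand. Sphk2 encodes sphingosine kinase 2, of the enzyme family for which SKI-II is named. Its transcript moved the other way, from 1018, 1023 and 968 with DMSO to 4115, 3012 and 3112 with SKI-II, a log2 fold change of 1.77 (SE 0.14, adjusted p = 2.33e-05). The 2 overlapping neighbours thus had opposite changes, and how reads on their shared bases were counted is not known.

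Of the Per and Cry genes, the repressors of the main loop, Per3 was called and the other 4 were not. Whether their changes differ from each other was not tested. Per3 (chromosome 4, 151003652 to 151044665), which carries the pair of D-boxes shown above, fell from 104, 136 and 91.1 to 43.6, 23.9 and 53.0. No treated library reached the lowest control, with a log2 fold change of -1.45 (SE 0.33, adjusted p = 0.00659 in edgeR's quasi-likelihood test). Per1 (chromosome 11, 69095217 to 69109960), which also responds to cAMP and glucocorticoid signals, was at 1398, 2081 and 2630.0 with DMSO and at 1718, 1273 and 1790.0 with SKI-II. DMSO replicate 1 lay within the range of the treated libraries, and the log2 fold change was -0.35 (SE 0.22, adjusted p = 0.233). Without DMSO replicate 1 the adjusted p was 0.0229. Per2 (chromosome 1, 91415982 to 91459324) was at 29.1, 67.0 and 68.3 with DMSO and at 66.0, 115 and 63.5 with SKI-II. It had the fewest reads of the 10 genes in the control libraries, its groups overlapped, and its log2 fold change of 0.58 had an SE of 0.38 (adjusted p = 0.261). No change of Per2 was thus detected, which does not show that there was none.

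Cry1 (chromosome 10, 85131700 to 85185064) and Cry2 (chromosome 2, 92403646 to 92434043) encode the cryptochromes, partners of the PER proteins. Cry1 was at 335, 368 and 283 with DMSO and at 451, 361 and 331 with SKI-II, a log2 fold change of 0.21 (SE 0.17, adjusted p = 0.370 in edgeR's quasi-likelihood test). Cry2 was at 457, 752 and 761 with DMSO and at 547, 453 and 364 with SKI-II, a log2 fold change of -0.53 (SE 0.22, adjusted p = 0.0834 in the same test). For both genes the groups overlapped. For Cry2 the overlap came from DMSO replicate 1, without which the adjusted p was 0.00937. With no filter on low counts the adjusted p of Cry2 in edgeR's test was 0.0133. That fit gave Nr1d1 an adjusted p of 1.66e-44, against 0.00503 with the filter. Cry2 shares 295 exon bases, 4.67% of its exon length, with D930015M05Rik on the opposite strand, which had at most 8 reads in a library. Arntl shares 33 (0.439%) with Gm45355, also on the opposite strand, with at most 1 read.

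**Figure D2:**
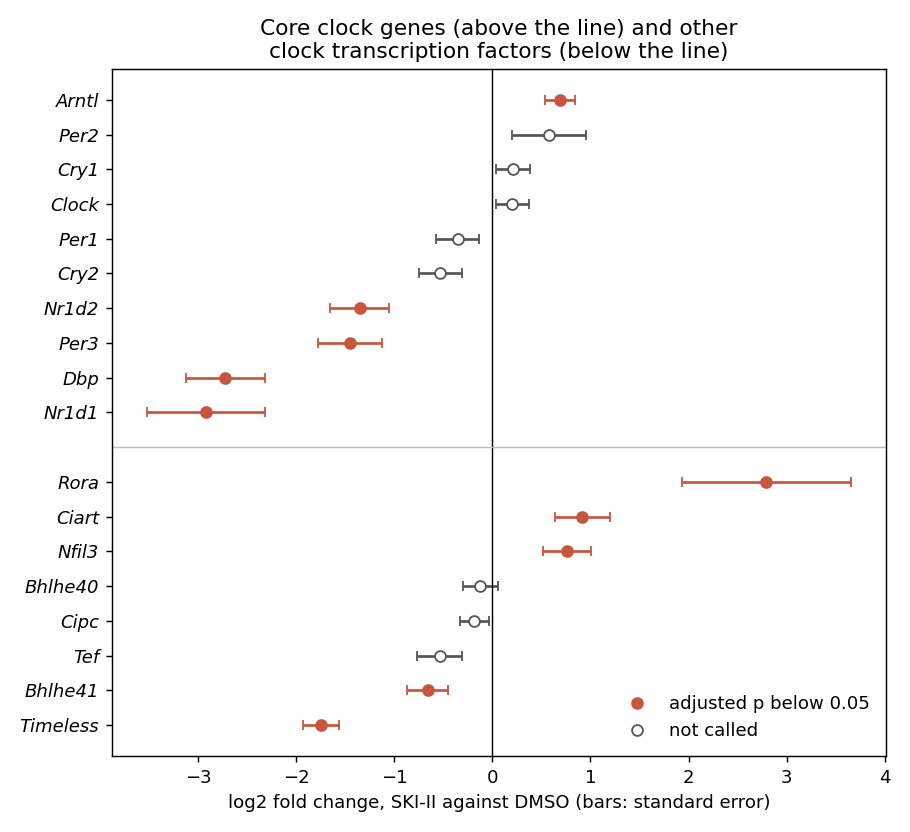
Log2 fold change of SKI-II against DMSO (x axis) with its standard error (bars) for the 10 core clock genes and the 8 tested genes among the other clock transcription factors. Filled points passed an adjusted p of 0.05 in edgeR's test. Arntl is the filled point to the right among the core genes at 0.69, and Nr1d1 and Dbp lie farthest to the left at -2.92 and -2.72.

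Because Arntl and the genes Nr1d1 and Dbp are of opposed phase in a running clock, their ratio was taken within each library, where it does not depend on the scaling. The log2 ratio of Nr1d1 to Arntl counts was -0.80, 0.81 and 1.76 with DMSO and -3.72, -4.07 and -1.56 with SKI-II. The group means were 0.59 ± 1.30 (SD, n = 3) and -3.12 ± 1.36 (SD, n = 3), a difference of -3.71. Without DMSO replicate 1 the difference was -4.41, and without SKI-II replicate 3 it was -4.49. For Dbp to Arntl the log2 ratio was -1.89, -1.20 and -0.13 with DMSO and -5.11, -4.58 and -3.68 with SKI-II, a difference of -3.38 between the means. The groups did not overlap in either ratio. As the genes forming these ratios are those that moved in the fit, the ratios are a description and were given no test.

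**Figure D3:**
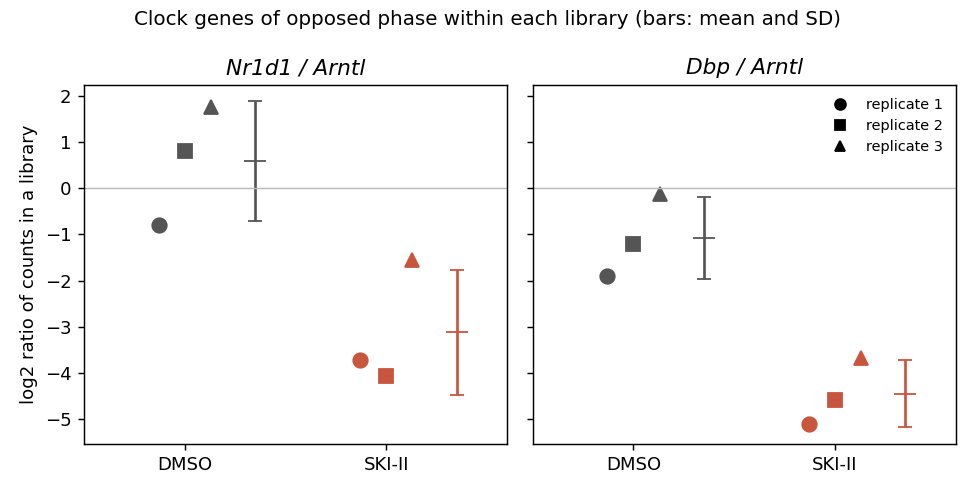
Log2 ratio of the counts of Nr1d1 (left) and Dbp (right) to those of Arntl within each library (y axis), for DMSO and SKI-II. Marker shapes give the replicate number, and bars the mean and SD of 3 libraries. In both panels all 3 SKI-II libraries lie below all 3 DMSO libraries, and the library numbered 3 is the highest of each group.

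The libraries within a group also differed in their clock genes. The SD of Nr1d1 on the log2 scale was 1.14 among the DMSO libraries and 1.15 among the SKI-II libraries, against medians of 0.20 and 0.20 over all tested genes, and 98.1% and 99.3% of tested genes had a smaller one. In Arntl the SD was 0.16 in DMSO and 0.20 in SKI-II. Nr1d1, Nr1d2, Dbp and Per1 were highest in replicate 3 of both groups, as were 23.5% of all tested genes. Arntl, Clock and Cry1 were lowest in replicate 3 of both groups, as were 20.7% of all tested genes. Without both libraries numbered 3, still 1 clock gene was called higher and 4 lower, although each group then held 2 libraries.

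Levels were compared between genes per length, as RPKM (reads per kilobase of summed exon, scaled to the depth of the library). With DMSO, Per1 had the highest mean at 22.5 ± 6.83 RPKM (SD, n = 3), followed by Nr1d1 at 14.7 ± 9.65, Nr1d2 at 6.63 ± 2.04, Cry2 at 6.48 ± 1.70, Cry1 at 6.13 ± 0.80 and Dbp at 4.33 ± 2.24. Arntl at 3.34 ± 0.37, Clock at 2.45 ± 0.47, Per3 at 0.72 ± 0.15 and Per2 at 0.58 ± 0.24 came last. Neighbours in this order overlapped in their libraries, except Arntl with Clock and Clock with Per3. With SKI-II the order was Per1 (17.6 ± 3.10), Cry1 (7.11 ± 1.17), Arntl (5.40 ± 0.72), Cry2 (4.49 ± 0.90), Clock (2.81 ± 0.28), Nr1d2 (2.58 ± 1.09), Nr1d1 (1.90 ± 1.63), Per2 (0.87 ± 0.31), Dbp (0.65 ± 0.24) and Per3 (0.26 ± 0.10). Per1 thus had the highest mean in both groups. Nr1d1 was 2nd of the 10 genes with DMSO and 7th with SKI-II, while Arntl was 7th and 3rd. With SKI-II the libraries of neighbours were separate for Per1 with Cry1, Cry1 with Arntl, Cry2 with Clock and Dbp with Per3. All other neighbours overlapped, Arntl with Cry2 and Nr1d1 with both Nr1d2 and Per2 among them. The values depend on the length used. Per the longest annotated transcript, the DMSO means became 6.28 for Arntl, 10.3 for Cry2, 7.06 for Dbp and 1.15 for Per3, over 1.5 times those above. In that order Arntl was 7th and 2nd, Nr1d1 kept its places, Cry1, Cry2, Nr1d2 and Dbp changed places with DMSO, and Arntl and Cry1, and Per2 and Dbp, changed places with SKI-II.

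**Figure D4:**
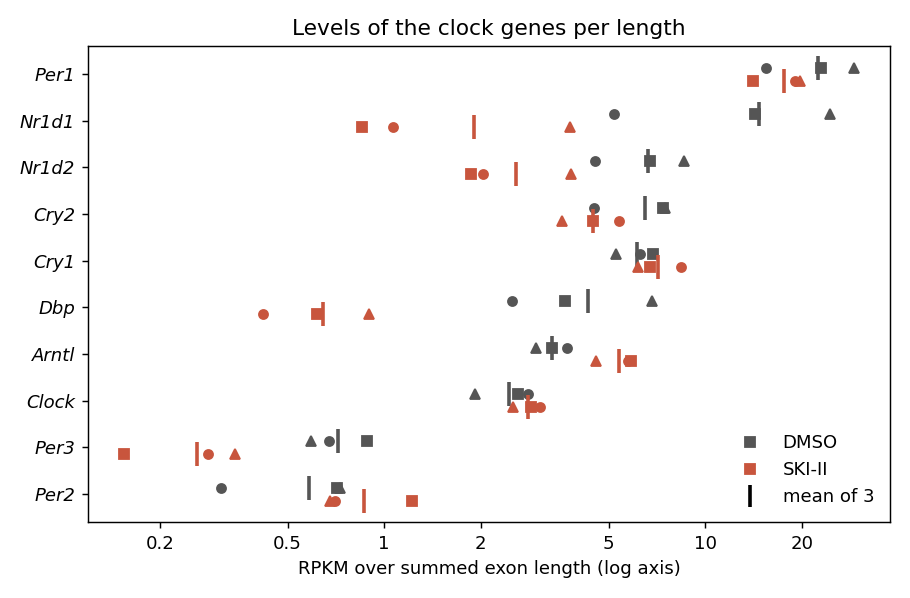
RPKM over the summed exon length (x axis, logarithmic) of each clock gene in the DMSO and SKI-II libraries. Marker shapes give the replicate number as in the plot of normalized counts, and vertical ticks the mean of 3 libraries. Per1 is the highest in both groups by its mean, and Nr1d1 and Dbp move to the left with SKI-II.

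Of 13 other clock transcription factors, 8 had enough reads for the test, of which edgeR called 3 higher and 2 lower (18.4% and 19.7% of all tested genes). The count of 3 includes Rora, which passed the filter on low counts only through the SKI-II libraries and so had to differ. When every library had to hold 10 counts or more, 2 were higher and 2 lower. The median log2 fold change of the 8 was -0.15. Rora, which encodes the activating receptor at RORE sites, was at 0, 1.26 and 7.92 with DMSO and at 34.7, 15.3 and 18.7 with SKI-II (log2 fold change 2.79, standard error 0.86, adjusted p = 0.0178). Its level was low in every library, resting on 0, 1 and 8 reads with DMSO. Its log2 fold change became 5.06 when DMSO replicate 3 was left out and 2.17 when DMSO replicate 1 was. The call ended when DMSO replicate 2 (adjusted p = 0.0693 in edgeR's test) or SKI-II replicate 1 (0.0777) was left out. Ciart, a repressor of the CLOCK-BMAL1 dimer also called CHRONO, rose from 83.5, 124 and 115 to 265.2, 211 and 134, a log2 fold change of 0.92 (adjusted p = 0.0256). Nfil3, a repressor at D-boxes and so an opponent of DBP, rose from 658, 1308 and 1381 to 1824, 1655 and 2191, a log2 fold change of 0.76 (adjusted p = 0.0340). The call of Ciart ended without replicate 1 of either group or the SKI-II library numbered 2 (adjusted p up to 0.115), and that of Nfil3 without DMSO replicate 2 or any 1 SKI-II library (up to 0.0878).

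Timeless, which is tied to DNA replication as well as to the clock, fell from 1684, 1616 and 1168 to 358, 520.0 and 448, a log2 fold change of -1.75 (SE 0.18, adjusted p = 9.55e-05 in edgeR's quasi-likelihood test). Bhlhe41 (DEC2), a repressor at E-boxes, had a log2 fold change of -0.66 (adjusted p = 0.0329), a call lost without DMSO replicate 2 or 3 or SKI-II replicate 1 or 2 (up to 0.125). Its relative Bhlhe40 was at -0.12 (adjusted p = 0.622), Cipc at -0.18 (adjusted p = 0.371) and Tef, a paralogue of Dbp, at -0.54 (adjusted p = 0.0877). Npas2, Arntl2, Rorb and Hlf were among the 5 with too few reads for the test. Of the paralogues that could stand in for core factors, Npas2 for Clock and Arntl2 for Arntl thus had at most 5 reads in any library, and Hlf, related to Dbp, had none.

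Of 18 genes for kinases, ubiquitin ligases and cofactors of the clock proteins, 17 were tested. In edgeR's test 0 were higher and 6 lower (18.4% and 19.7% of all tested genes), with 1 higher at an unadjusted p below 0.05 and 0 higher by DESeq2 or limma-voom. The median log2 fold change was -0.18. Usp2, a deubiquitinase whose own transcript follows the clock, fell from 318, 316 and 267 to 170.1, 118 and 79.0, a log2 fold change of -1.30 (adjusted p = 0.00353). Nono, a PER-binding RNA-binding protein, fell from 5635, 5719 and 5533 to 3018, 3331 and 3339.6, a log2 fold change of -0.80 (adjusted p = 0.000529). Csnk1e, which encodes a casein kinase that phosphorylates PER, was at 1397, 2121 and 2628 with DMSO and at 1071, 1034 and 1528 with SKI-II. Its groups overlapped, and its log2 fold change of -0.76 (adjusted p = 0.0262) was not called without DMSO replicate 2 or 3 or SKI-II replicate 1 or 2 (up to 0.0999). Wdr5 at -0.61 (adjusted p = 0.00272), Csnk2a1 at -0.39 (0.0315) and Hdac3, the deacetylase recruited by REV-ERB, at -0.35 (0.0365) were also called. Leaving out a library other than DMSO replicate 1 or SKI-II replicate 3 ended the call of Csnk2a1, and leaving out any but DMSO replicate 3 that of Hdac3, and both were lost with no filter on low counts. Csnk1d, the close relative of Csnk1e, was at -0.05 (adjusted p = 0.787).

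Of 11 genes for inputs to the clock, 2 were higher and 3 lower in edgeR's test, with a median log2 fold change of 0.00. These counts are near the shares of all tested genes, 18.4% higher and 19.7% lower. Crem, a cAMP-responsive factor, rose from 101, 70.8 and 116 to 213, 209.9 and 188, a log2 fold change of 1.08 (adjusted p = 0.00414). Crtc1, a coactivator of CREB, was at 0.53 (adjusted p = 0.0367) and Creb1 itself at -0.47 (0.0196). The call of Crtc1 ended with library size alone as the scaling and without DMSO replicate 2 or 3 or SKI-II replicate 1 or 2, and that of Creb1 without DMSO replicate 2 or SKI-II replicate 2. Parp1, a NAD+-consuming enzyme, fell from 8339, 8281 and 7923 to 2689.9, 3359.7 and 3507, a log2 fold change of -1.36 (adjusted p = 7.30e-05). Nampt, which makes the precursor of NAD+ and is itself a clock output, fell by 0.50 on the log2 scale (adjusted p = 0.0110), from 2281, 2325 and 2842 to 1709.7, 1703 and 1858. The glucocorticoid receptor gene Nr3c1 was at -0.12 (adjusted p = 0.515).

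Of 10 genes that follow the clock in many mouse tissues, 9 were tested, with 1 higher and 2 lower in edgeR's test and a median log2 fold change of -0.12. These counts too are near the 18.4% and 19.7% of all tested genes. Wee1, a kinase that restrains entry into mitosis and is driven by E-boxes, fell from 635, 498 and 404 to 236, 174 and 130.4, a log2 fold change of -1.52 (adjusted p = 0.00109). Tspan4 fell from 1309, 1255 and 1399 to 567, 746 and 834, a log2 fold change of -0.88 (adjusted p = 0.00170). Herpud1, which is also a gene of the unfolded protein response, rose from 841, 1349 and 1959 to 2492, 2464 and 2044, a log2 fold change of 0.75 (adjusted p = 0.0382). Its call was lost without DMSO replicate 1 or 2 or SKI-II replicate 1 or 2, with an adjusted p of up to 0.115. Of 4 macrophage genes known to be repressed by REV-ERB proteins, 3 were tested, and none was called higher in edgeR's test (0 at an unadjusted p below 0.05, and 0 by DESeq2 or limma-voom), while 1 was called lower (19.7% of all tested genes). Cx3cr1, the fractalkine receptor gene, fell from 1704, 435 and 295 to 58.2, 67.7 and 36.7, a log2 fold change of -3.92 (adjusted p = 0.00111), and of -2.77 without DMSO replicate 1. Mmp9 was at -0.98 (adjusted p = 0.156) and Ccl2 at -0.21 (0.829), but Mmp9 was called lower with no filter on low counts or with a block for replicate number, so that 2 of these genes were then lower. Il6 had no reads with DMSO and 4, 0 and 8 with SKI-II, and with no filter it was the 1 gene of these called higher. In edgeR's test without the filter, Cx3cr1 had an adjusted p of 9.65e-72, against 0.00111 with it. The fit without the filter was not tried on simulated counts.

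Macrophage markers were present in every library. The raw counts of 8 genes, not scaled for depth, summed to between 114197 and 211632 in DMSO and between 78353 and 137979 in SKI-II. Lyz2 alone held 71666 to 152065 of them in DMSO and 21109 to 64990 in SKI-II. Of the 8, 1 was higher and 4 lower in edgeR's test (18.4% and 19.7% of all tested genes). Csf1r, Cd68 and Spi1 were not called (adjusted p = 0.536, 0.381 and 0.512). Markers of T cells, B cells, neutrophils, fibroblasts, epithelium, endothelium and hepatocytes, 8 in all, summed to 6 to 12 counts in DMSO and 8 to 20 in SKI-II, and 4 of them were at 0 throughout. All 8 proliferation markers were called lower with SKI-II (19.7% of all tested genes), with log2 fold changes from -2.80 to -1.09 and summed counts of 29092 to 41897 in DMSO against 6526 to 9879 in SKI-II. Mitochondrial transcripts took 1.07% to 1.25% of counts in DMSO and 1.38% to 1.71% in SKI-II. The part of these differences in the falls of Timeless, Wee1, Parp1 and the clock genes was not tested.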

How the data were processed

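Poly(A)-selected RNA of RAW264.7 cells was sequenced in 3 libraries each for SKI-II (4 μg/mL) and DMSO, both at 24 h. The table used here holds the raw read counts per Ensembl gene that the authors deposited, without normalization. Their methods name Trimmomatic 0.36 and STAR 2.5.2b, and the submitters' processing notes also list featureCounts and Subread 1.5.2. The sources used here do not give the build, annotation release or strand setting. Names, positions and exon lengths came from GENCODE M21 (GRCm38), which named 49056 of 49315 identifiers, and promoters from RefSeq (GRCm38.p6).

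Counts were tested with edgeR 4.0.16 in R 4.3.3 (quasi-likelihood F test, TMM scaling, filterByExpr with min.count 10 and min.total.count 15, Benjamini-Hochberg adjustment over the 12274 genes kept). A gene was called at an adjusted p below 0.05. Standard errors came from the weights of the fitted model and the moderated dispersion. To normalize, each count was divided by its library's TMM-scaled size and multiplied by the mean size. RPKM used the summed exon length. Libraries of the same group all differed by more than sampling noise (chi-square per degree of freedom of at least 15.4), so none was taken for a library deposited again.

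The alternatives were DESeq2 1.42.0, limma-voom (limma 3.58.1), RLE scaling, library size alone, no filter, at least 10 counts in every library, the replicate number as a block, and each library left out in turn. Leaving out both libraries numbered 3 was added after the data had been seen. Tested on simulated counts with 200 changed genes were edgeR with each scaling, the block or 1 library left out, limma-voom and DESeq2. The fits with no filter, with at least 10 counts in every library and without both libraries numbered 3 were not. All 10 clock genes are described, as are the called members of 5 further lists of the clock pathway and the genes sharing exon bases with a clock gene. The clock genes and the lists were chosen with earlier results of these data known, and the lists were written by hand from general knowledge. Some list members are not reported here. Figures were drawn with matplotlib 3.10.9.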

Additional observations from a re-analysis of the deposited data

How the results depend on the processing

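Across 7 other ways of testing, scaling or filtering, each library left out in turn and both libraries numbered 3 left out, no fitted value of the 10 clock genes changed sign, and 137 of 140 values stayed on their side of the threshold. The exceptions are the calls of Per1 and Cry2 without DMSO replicate 1 and of Cry2 with no filter, for which the cause was not tested. The clock genes called lower numbered 4 to 6 and those called higher 1, or 0 with a log2 fold change above 1 required as well. With a library left out, the other clock transcription factors called higher numbered 0 to 3 and lower 1 to 3, the kinases and cofactors called lower 3 to 6, the inputs called higher 1 to 2, and the widely rhythmic genes called higher 0 to 1. The inputs called higher numbered 1 with library size alone. Of the REV-ERB-repressed genes, 1 was called higher (Il6) and 2 lower (Cx3cr1 and Mmp9) with no filter, and 2 lower with the replicate number as a block. Among the called genes of these lists, 238 of 279 values kept their side and 0 changed sign. No scaling moved the median of all tested genes by over 0.1. Same-numbered libraries were not shown to be paired. Their deviations from the group means correlated at 0.25, 0.01 and 0.46 for numbers 1, 2 and 3. Between libraries of different number the values were 0.30, -0.46, 0.04, -0.05, -0.26 and -0.28. Whether libraries of the same number share a source was not tested. The block left the clock genes at 1 higher and 4 lower. Over all tested genes it called 2765 higher and 2819 lower, against 2255 and 2413 without it. The difference in log2 ratio to Arntl lay between -4.49 and -3.12 for Nr1d1 and between -3.79 and -2.91 for Dbp with a library left out. Among the genes with few reads, the counts per library were 30 to 120 for Per2, 25 to 108 for Per3, 18 to 331 for Dbp and 0 to 31 for Rora, and the part of depth in their errors was not tested.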
